A study of Homo sapiens with 8 samples.

Results

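PCDH7 and 7 other non-clustered protocadherin genes (PCDH1, PCDH8, PCDH9, PCDH10, PCDH17, PCDH18 and PCDH20) were followed in the lung adenocarcinoma lines A549 and PC9, both established from human tumours. The members were all probe sets whose array annotation gives 1 of these symbols alone, which made 29 of 49495 probe sets. They fell as 5 for PCDH7, 5 for PCDH18, 4 each for PCDH1, PCDH10 and PCDH17, 3 for PCDH9 and 2 each for PCDH8 and PCDH20. No probe set carried a member symbol together with another. PCDH7 had been chosen by its measured change with EN2 in PC9, so all EN2 differences in PC9 are given below as descriptions without a test.

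The study set cells infected with a retrovirus carrying EN2, a homeobox transcription factor of the engrailed family, against cells infected with the Neo control virus (NC), each in both lines. The 4 groups were A549 EN2, A549 NC, PC9 EN2 and PC9 NC, with 2 arrays each. All 4 were stably infected cells selected with an agent the labels spell genemycin, so the controls too had been infected and selected, with virus from 293FT packaging cells. A549 was grown in F-12K and PC9 in Dulbecco's medium, so medium and line cannot be told apart. The labels give neither the promoter that drives EN2 nor whether the cells were clones or pools, and they do not say that replicates were separate cultures. The p-values below cover the spread between these arrays only, part or all of which may be technical.

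Values are on the log2 scale, and a difference of 1 is a 2-fold difference in signal. The brighter EN2 probe set read 7.71 and 7.62 in the EN2 arrays of A549 against 6.48 and 6.57 in the A549 NC arrays, and 6.24 and 6.39 in the PC9 EN2 arrays against 5.86 and 5.78 in the PC9 NC arrays. The other EN2 probe set differed by 0.05 in A549 and 0.16 in PC9. Background was set at the 95th percentile of the 100 spike-in controls, 4.42 for A549 arrays and 3.94 for PC9 arrays. All 8 epithelial markers lay above it in both lines, while PTPRC of blood cells, TEK of endothelium and COL3A1, DCN and LUM of fibroblasts lay below it in both. In A549 and PC9 alike, 3 of 4 blood cell, 2 of 5 fibroblast and 3 of 4 neural markers lay above it, among them CD68, PDGFRB and GFAP, and of 4 endothelial markers 2 did in A549 and 3 in PC9. The 18S rRNA control, given as the mean of 3 probe sets, read 11.66 and 12.12 in the EN2 arrays of A549 against 12.44 and 12.74 in the A549 NC arrays, whereas in PC9 it read 6.05 to 6.10 on all 4 arrays. Quartiles differed between the lines, with medians of 6.33 to 6.35 on A549 arrays and 6.10 to 6.11 on PC9 arrays. No probe set had an identical value on arrays of different lines (0%), against 0.519% to 0.713% for arrays of 1 line. The common scale of the lines is thus not known, and p-values between the lines include any difference of scale.

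Protocadherins are calcium-binding transmembrane proteins of the cadherin superfamily that mediate cell-cell recognition. The clustered genes lie in tandem arrays, whereas the non-clustered ones are scattered and are best known from the developing nervous system. PCDH1, PCDH7 and PCDH9 belong to the delta-1 subfamily, whose cytoplasmic tails carry a binding site for protein phosphatase 1, and PCDH8, PCDH10, PCDH17 and PCDH18 to the delta-2 subfamily, several of which recruit the actin-regulating WAVE complex. In lung cancer cells PCDH7 is known as a cell-surface protein that binds the phosphatase inhibitor SET and enhances MAPK signalling.

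PCDH7 spans chr4:30720369-31146800 and PCDH9 chr13:66302834-67230336 in GRCh38.p14. The 250 bases before the RefSeq starts (GRCh38.p14) of both, as the members with changes above background, are shown 5′ to 3′ on the gene's strand. A PCDH1 window is added, the only one of a matched member that held TAATTA, the core bound by engrailed homeodomains (in capitals). PCDH1 spans chr5:141853090-141878410, so its window lies inside the gene, whereas those of PCDH7 and PCDH9 lie just outside theirs. PCDH7, chr4:30720119-30720368, plus strand, PCDH9, chr13:67230337-67230586, minus strand, and PCDH1, chr5:141869628-141869877, minus strand, follow.
PCDH7: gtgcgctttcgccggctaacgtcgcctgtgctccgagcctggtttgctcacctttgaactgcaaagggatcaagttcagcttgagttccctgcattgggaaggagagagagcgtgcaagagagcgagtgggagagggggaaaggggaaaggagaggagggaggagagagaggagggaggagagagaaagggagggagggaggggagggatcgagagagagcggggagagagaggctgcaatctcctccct
PCDH9: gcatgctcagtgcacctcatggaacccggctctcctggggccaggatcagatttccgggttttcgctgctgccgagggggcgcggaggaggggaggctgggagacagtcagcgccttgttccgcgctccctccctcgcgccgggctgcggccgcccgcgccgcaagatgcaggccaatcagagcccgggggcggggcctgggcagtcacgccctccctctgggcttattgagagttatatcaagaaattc
PCDH1: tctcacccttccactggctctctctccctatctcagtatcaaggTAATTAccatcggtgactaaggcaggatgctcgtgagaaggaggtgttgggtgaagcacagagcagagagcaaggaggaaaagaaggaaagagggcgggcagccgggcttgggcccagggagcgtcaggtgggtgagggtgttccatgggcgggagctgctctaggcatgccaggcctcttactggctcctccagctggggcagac
Of the 8 genes, 6 had an entry and 1 held TAATTA, a palindrome read alike on both strands, against 4.35% of 35116 such windows. The shorter TAAT, also counted as ATTA for the other strand and overlapping TAATTA, was in none of the PCDH7 and PCDH9 letters above, in the windows of PCDH1 and PCDH8, and in 47.4% of all windows. The PCDH7 window was rich in A and G, at 69.2% of its bases, and 99.3% of all windows had less. The PCDH9 window had 50% A and G and 66.8% G and C, against a median of 58% G and C over all windows. These matches describe letters only.

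PCDH7 was bright in the PC9 NC arrays, much dimmer in the PC9 EN2 arrays and at or near background in A549. Its 5 probe sets ranked 1, 2, 3, 5 and 13 among all 49495, counted from the lowest difference between EN2 and NC in PC9. Probe set 11724983_at read 6.07 and 6.72 in the PC9 EN2 arrays against 9.48 and 9.95 in the PC9 NC arrays. This was a log2 difference of −3.32, or a 9.99-fold lower signal with EN2. Probe set 11737384_at read 4.12 and 4.89 in the PC9 EN2 arrays against 7.26 and 7.46 in the PC9 NC arrays, a difference of −2.85. Both EN2 arrays lay far below both NC arrays, although the EN2 arrays themselves differed by more than the NC arrays.

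Probe set 11724982_s_at of PCDH7 had nearly equal EN2 values, 5.33 and 5.32 in the PC9 EN2 arrays, against 8.02 and 8.32 in the PC9 NC arrays. Its log2 difference was −2.85, or 7.20-fold. The probe set with the highest mean over the 8 arrays, 11724981_at, read 6.44 and 6.65 in the PC9 EN2 arrays against 8.56 and 8.93 in the PC9 NC arrays. Its difference of −2.20, or 4.59-fold, was smaller than that of 3 of the other 4, so the probe set that usually stands for a gene gave a smaller fall here than most of its companions. With 1 array left out, its difference ran from −2.39 to −2.01, and for 11724983_at it ran from −3.64 to −3.0.

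The last PCDH7 probe set, 11741722_at, was dim, with 3.16 and 3.52 in the PC9 EN2 arrays against 4.56 and 4.68 in the PC9 NC arrays. Both EN2 arrays were below background, so its difference of −1.28 is read as at least 1.6-fold lower. The groups did not overlap in any of the 5 probe sets. By 2-fold or more, 5 of the 29 member probe sets were lower with EN2 in PC9, all of PCDH7, and so were 0.0667% of all probe sets. Since this contrast chose PCDH7, the count is no evidence about the group.

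**Figure D1:**
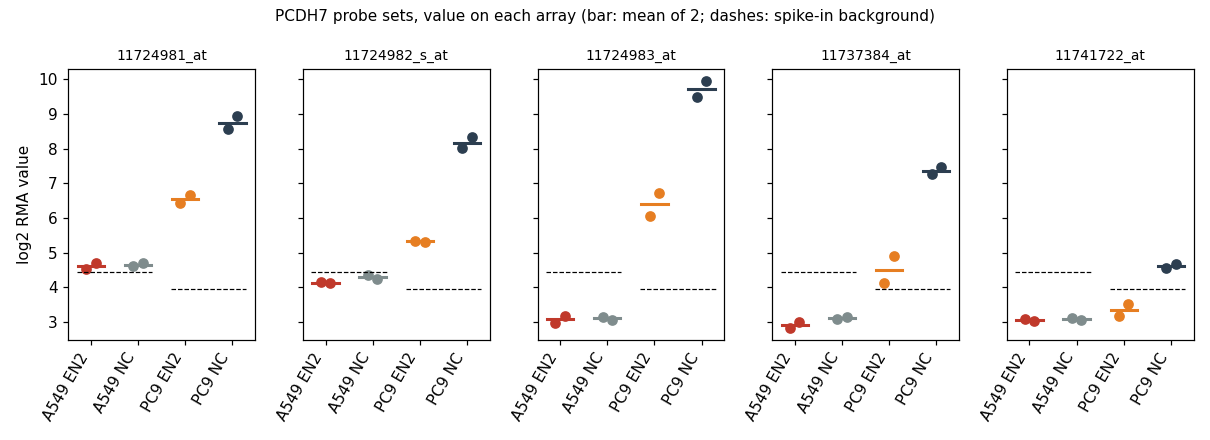
Log2 value of each PCDH7 probe set (one panel each) on the 8 arrays, by group. Points are arrays, bars the mean of 2, and dashes the spike-in background of each line. In PC9 every EN2 point lies below every NC point, while in A549 all points of 4 panels lie below the background.

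Measured as a place within its own array, 11724983_at stood between the 49.6th and 57.8th percentile of all probe sets in the PC9 EN2 arrays and between the 88.6th and 91.9th in the PC9 NC arrays. In A549 it lay between the 0.982nd and 3.09th percentile in the EN2 arrays and between the 2.06th and 2.70th in the NC arrays. The order of levels was thus PC9 NC, then PC9 EN2, then both A549 groups, whose ranges overlapped. In bulk RNA, fewer cells with PCDH7 and less PCDH7 RNA per cell cannot be told apart. The actin 3′ minus 5′ control, a measure of RNA integrity, was 1.29 and 1.03 in the PC9 EN2 arrays against 1.09 and 1.13 in the PC9 NC arrays, so its groups overlapped.

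In A549, EN2 gave no called difference in PCDH7. Probe set 11724981_at, the only one above background there, read 4.52 and 4.69 in the EN2 arrays against 4.62 and 4.69 in the NC arrays. These groups overlapped, with a log2 difference of −0.05 ± 0.14 SE (adjusted p = 0.934 by limma over all probe sets). The other 4 probe sets were below background in both A549 groups, so a change there cannot be read.

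PCDH9, a delta-1 protocadherin of neuronal contacts, was the member that fell in A549. Probe set 11741951_a_at read 5.39 and 5.15 in the EN2 arrays of A549 against 6.14 and 6.17 in the A549 NC arrays. It fell by 0.88 ± 0.14 SE on the log2 scale, a 1.84-fold lower signal (limma adjusted p = 0.0152). Probe set 11759895_at read 6.84 and 7.12 in the EN2 arrays of A549 against 7.73 and 7.98 in the A549 NC arrays. It fell by 0.87 ± 0.16 SE (limma adjusted p = 0.025). Both EN2 arrays lay below both NC arrays in each case.

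The brightest PCDH9 probe set, 11745210_s_at, read 7.52 and 7.71 in the EN2 arrays of A549 against 8.13 and 8.48 in the A549 NC arrays. It fell by 0.69 ± 0.13 SE on the log2 scale, 1.61-fold (limma adjusted p = 0.0268). These were the only calls among the members in A549: 3 of 29 probe sets passed at an adjusted p below 0.05, all lower, against 1.97% of all probe sets in either direction and 0.939% lower. The 3 probe sets are of 1 gene and are not independent of each other.

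**Figure D2:**
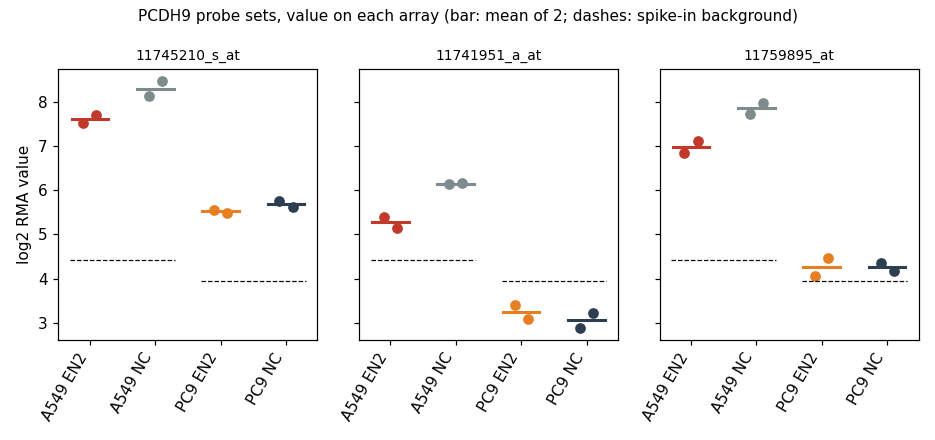
Log2 value of each PCDH9 probe set (one panel each) on the 8 arrays, by group, with points for arrays, bars for the mean of 2 and dashes for the spike-in background. In A549 the EN2 points lie below the NC points in all 3 panels, and in PC9 the probe sets lie near or below background except 11745210_s_at.

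The A549 values of PCDH9 were set beside the 18S rRNA control given above. On 11745210_s_at and 11759895_at the 4 arrays stood in the same order as in 18S rRNA signal, and on 11741951_a_at they did not. The share of all probe sets in that order was not counted, so the match is not read as a trait of PCDH9. With that signal as a covariate the differences were −0.26 ± 0.21 SE for 11745210_s_at (limma adjusted p = 1) and −0.42 ± 0.30 SE for 11759895_at (adjusted p = 1). For 11741951_a_at the difference was −1.07 ± 0.30 SE (adjusted p = 0.588). Both A549 EN2 arrays had less 18S rRNA signal than both NC arrays, so group and covariate are hard to separate. With the covariate 0.0485% of all probe sets were called, against 1.97% without it. A call lost under it therefore says little about a single gene. Without A549 EN2 replicate 1 none of the 3 was called (−0.59, −0.73 and −1.0 in the same order), nor without A549 NC replicate 2 (−0.51, −0.75 and −0.87). Probe set 11741951_a_at also lost its call without A549 EN2 replicate 2 (adjusted p = 0.062), and 11745210_s_at without either PC9 EN2 array (adjusted p = 0.0533 each). On the A549 arrays alone only 11741951_a_at was called. The actin 3′ minus 5′ control also differed, at 0.98 and 0.88 in the EN2 arrays of A549 against 0.79 and 0.78 in the A549 NC arrays, and its part in the result was not tested.

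**Figure D3:**
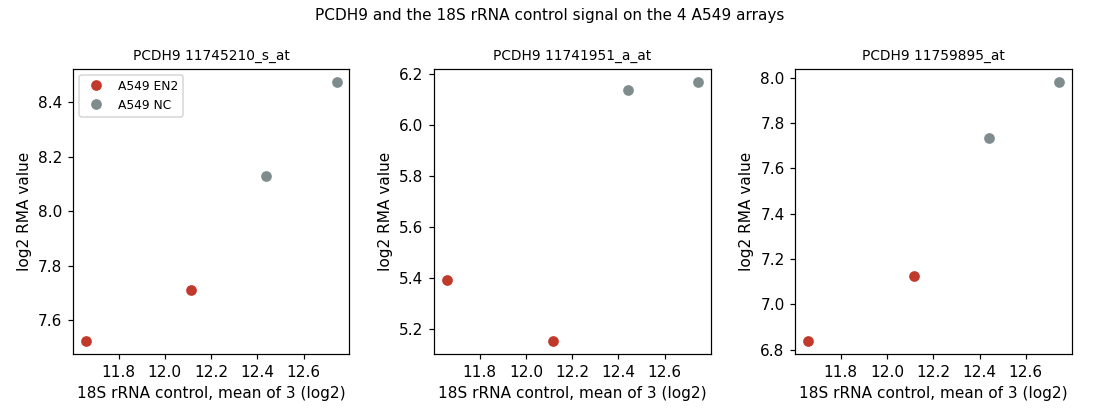
Log2 value of each PCDH9 probe set (y axis, one panel each) against the mean 18S rRNA control signal (x axis, log2) on the 2 EN2 and 2 NC arrays of A549. The arrays rise in the same order on both axes in the panels of 11745210_s_at and 11759895_at, and in the panel of 11741951_a_at the EN2 arrays are turned round.

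In PC9, PCDH9 was low in both groups. Probe set 11745210_s_at read 5.55 and 5.49 in the PC9 EN2 arrays against 5.75 and 5.61 in the PC9 NC arrays, which did not overlap, at a difference of −0.16. Probe set 11759895_at overlapped, with 4.06 and 4.46 in the PC9 EN2 arrays against 4.36 and 4.17 in the PC9 NC arrays, and 11741951_a_at was below background. Whether the EN2 difference of PCDH9 differs between the lines was not tested.

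PCDH1, the remaining delta-1 member and an adhesion molecule of airway epithelium, was above background on all 4 probe sets in both lines. In A549 their group means ran from 4.84 to 6.12, against a background of 4.42. Its brightest probe set, 11719230_at, read 6.0 and 5.70 in the EN2 arrays of A549 against 6.14 and 6.09 in the A549 NC arrays. This difference of −0.26 ± 0.12 SE was not called by limma (adjusted p = 0.309), although the arrays did not overlap. In PC9 it overlapped, at 9.06 and 8.95 in the EN2 arrays against 9.02 and 9.24 in the NC arrays. Over its 4 probe sets the differences ran from −0.26 to 0.11 in A549 and from −0.13 to 0.11 in PC9.

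Among the delta-2 members, PCDH10, a protocadherin often silenced by promoter methylation in carcinomas, gave small differences of either sign. Probe set 11738065_a_at read 5.92 and 5.96 in the EN2 arrays of A549 against 5.75 and 5.90 in the A549 NC arrays (difference 0.12, limma adjusted p = 0.647). In PC9 it read 5.38 and 5.41 in the EN2 arrays against 5.43 and 5.58 in the NC arrays, a difference of −0.11. PCDH18 had its brightest probe set, 11733973_a_at, at 4.45 and 4.44 in the EN2 arrays of A549 against 4.52 and 4.47 in the A549 NC arrays (limma adjusted p = 0.891), close to background. In PC9 the same probe set overlapped, at 4.89 and 5.10 in the EN2 arrays against 5.02 on both NC arrays.

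PCDH8, PCDH17 and PCDH20 were below background on all their 8 probe sets in both lines, with values of 2.82 to 4.2 over all arrays. PCDH17 and PCDH20 are, like PCDH10, known as genes silenced by methylation in several carcinomas. Their differences between EN2 and NC, from −0.14 to 0.13 in A549 and from −0.04 to 0.21 in PC9, cannot be read as changes. In all, 11 of the 29 member probe sets were above background in A549 and 16 in PC9, against 80% and 81.2% of all probe sets.

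**Figure D4:**
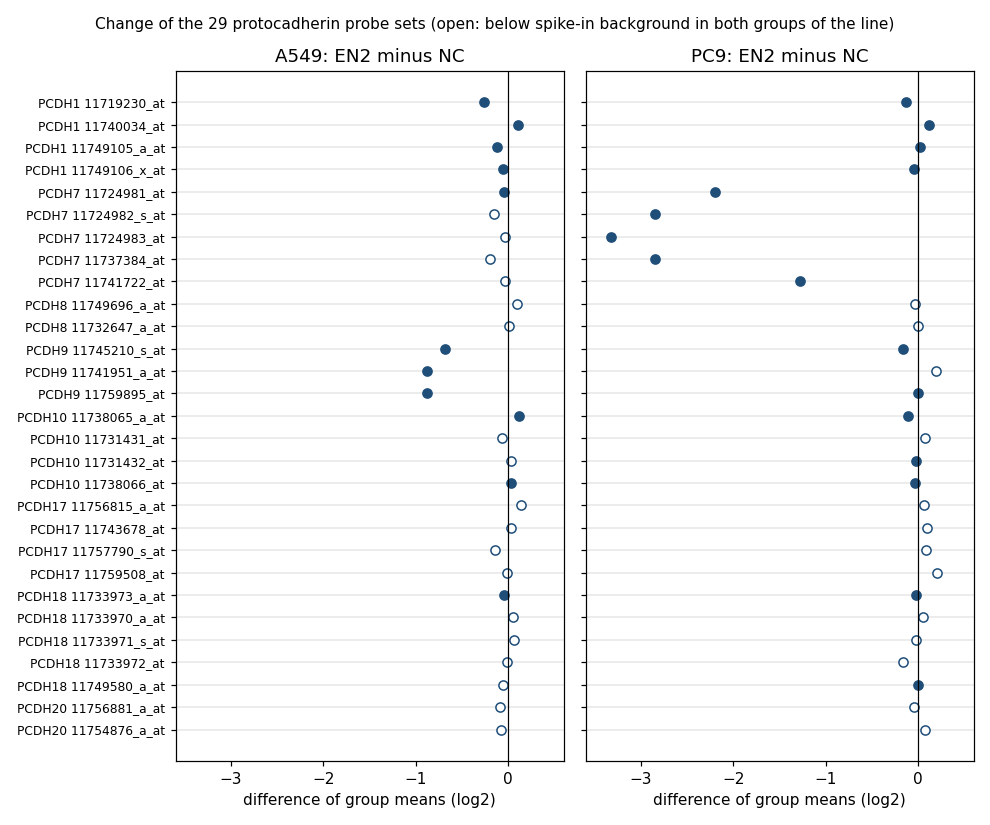
Difference between EN2 and NC group means (x axis, log2) of the 29 probe sets (rows, by gene) in A549 (left) and PC9 (right), with open points for probe sets below background in both groups of that line. The 3 PCDH9 points stand apart at −0.88 to −0.69 in A549 and the 5 PCDH7 points at −3.32 to −1.28 in PC9, and all others lie between −0.26 and 0.21.

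Beyond PCDH9, no other of the 26 member probe sets passed in A549, where their differences ran from −0.26 to 0.13 with SEs of 0.075 to 0.21 (lowest limma adjusted p = 0.309). By order alone, both A549 EN2 arrays lay below both NC arrays in 13 of the 29 and above them in 3, against 24.1% and 22% of all probe sets. Most of the 13 were below background in A549, where no difference can be read, and 3 others were of PCDH9 alone. The 13 are therefore not read as a fall of the group. The median A549 difference was −0.05 over the members and −0.01 over all probe sets. In PC9 the 24 probe sets other than those of PCDH7 had differences of −0.16 to 0.21. Both PC9 EN2 arrays lay below both NC arrays in 8 of the 29 members and above them in 6, against 15.7% and 17.1% of all. The 8 include all 5 probe sets of PCDH7, which this contrast chose. Most of the 6 were below background in PC9, so neither count is a result about the members.

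The NC arrays of the lines were compared to ask which members the lines carry without the EN2 virus. Of 29 probe sets, 13 were higher and 10 lower in A549 than in PC9 by limma at an adjusted p below 0.05. This split rests on the scale: with quantile normalisation, and likewise with each array centred on its median, 3 were higher, all of PCDH9, and 13 lower. Of the calls on the deposited scale, 7 higher and 1 lower were of probe sets below background in the NC arrays of both lines, where no difference can be read. Of all probe sets, 47.8% were called higher, 26.5% lower and 74.2% in either direction, so the share called is no feature of the group. With quantile normalisation those shares were 34% higher and 34.4% lower. PCDH7 was called lower in A549 on all 5 probe sets, of which only 1, 11724981_at, was above background there (17.0-fold lower). With A549 set at background, 11741722_at was lower by at least 1.14-fold only. Probe set 11724983_at read 3.14 and 3.07 in the A549 NC arrays against 9.48 and 9.95 in the PC9 NC arrays. It was at least 39.1-fold lower when A549 is set at background, a bound that was not tested. The limma fit on the values as they stand gave a log2 difference of −6.61 (adjusted p = 2.49e-09). The PC9 NC arrays also entered the contrast by which PCDH7 was picked.

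PCDH1 was also lower in A549, with 11719230_at at 6.14 and 6.09 in the A549 NC arrays against 9.02 and 9.24 in the PC9 NC arrays. The log2 difference was −3.01 ± 0.12 SE (limma adjusted p = 1.11e-08), though 11740034_at of the same gene was higher in A549 by 0.38 (adjusted p = 0.00405), and by 0.033 after quantile normalisation (adjusted p = 0.762). PCDH9 was higher in A549 on all 3 probe sets. Its 11745210_s_at read 8.13 and 8.48 in the A549 NC arrays against 5.75 and 5.61 in the PC9 NC arrays, a difference of 2.62 ± 0.13 SE (limma adjusted p = 4.92e-08). The median over all probe sets was 0.21 higher in A549. The PCDH10 difference of 0.32 on 11738065_a_at (limma adjusted p = 0.0132) was −0.0015 after quantile normalisation over all arrays, and it lost the call without A549 NC replicate 2 (0.25, adjusted p = 0.0994) or PC9 NC replicate 1 (0.25, adjusted p = 0.0867).

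The genes that lie beside PCDH7 and PCDH9 in the RefSeq order were read too, a choice made after the values were seen. STIM2, the nearest measured gene before PCDH7, read 7.03 and 7.23 in the PC9 EN2 arrays against 7.27 and 7.05 in the PC9 NC arrays. ARAP2, the nearest after it, read 8.43 and 8.38 in the PC9 EN2 arrays against 8.43 and 8.11 in the PC9 NC arrays. Both overlapped. Beside PCDH9, KLHL1 read 5.88 and 5.92 in the EN2 arrays of A549 against 5.99 and 5.92 in the A549 NC arrays (limma adjusted p = 0.857), and PCDH20, on the other side, was below background.

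Other protocadherins and cadherins were taken from lists, each gene by its brightest probe set. Of the 18244 genes so represented, 2.26% were called in A549. The first list held 15 measured genes: other non-clustered protocadherins and cadherin-related (CDHR), FAT and Dachsous genes. Of these, FAT4, a giant cadherin of the planar polarity and Hippo pathways, rose in A549, none fell and 14 did not pass. FAT4 read 4.88 and 4.81 in the EN2 arrays of A549 against 4.25 and 4.14 in the A549 NC arrays (log2 difference 0.65, limma adjusted p = 0.0143). Its NC values were below background, so it was at least 1.34-fold higher, and it lost the call without A549 EN2 replicate 1 (difference 0.61, adjusted p = 0.138) or A549 NC replicate 2 (0.59, adjusted p = 0.148), and with 18S rRNA signal as covariate (0.48, adjusted p = 0.917).

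None of 53 clustered protocadherins passed in A549, with differences of −0.18 for PCDHAC2 to 0.39 for PCDHB2 and a median of −0.01. These genes share exons within a cluster, so single members are uncertain. In PC9 their differences ran from −0.19 to 0.21, with a median of −0.01. Of 20 measured classical and related cadherins, CDH1, the gene of E-cadherin, fell in A549, none rose and 19 did not pass. CDH1 read 8.49 and 8.64 in the EN2 arrays of A549 against 9.72 and 9.65 in the A549 NC arrays (−1.11, limma adjusted p = 0.00039, against −0.98 and 0.246 with the 18S rRNA covariate, and −1.08 and 0.0815 without the outer 18S rRNA arrays, replicate 1 of A549 EN2 and replicate 2 of A549 NC). In PC9 it overlapped, at 10.82 and 10.78 in the PC9 EN2 arrays against 10.65 and 10.93 in the PC9 NC arrays.

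Genes of intracellular partners were also listed. Of 7 genes for SET, its relative ANP32A and subunits of protein phosphatases 1 and 2A, none passed in A549, and all were above background in both lines. PPP1CB, a catalytic subunit of protein phosphatase 1, had the largest A549 difference (0.20, limma adjusted p = 0.13), followed by PPP2CA (0.16, adjusted p = 0.39). In PC9 the 7 differences lay between −0.07 and 0.05.

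Of 9 measured WAVE complex genes, WASF2, the actin nucleation scaffold WAVE2, rose in A549, none fell and 8 did not pass. WASF2 read 8.43 and 8.28 in the EN2 arrays of A549 against 7.90 and 7.97 in the A549 NC arrays (0.42, limma adjusted p = 0.0386). Its probe sets disagreed, since their mean differed by only 0.0070 (adjusted p = 0.984). It lost the call when any array other than A549 EN2 replicate 2 was left out, at differences of 0.34 to 0.45 and an adjusted p of up to 0.293. Under the 18S rRNA covariate it was 0.31 (adjusted p = 0.96). TAOK2, a kinase that works with PCDH8 in rat neurons, and SMAD3, a partner of PCDH1, did not pass in A549 (−0.08 and 0.28, adjusted p = 0.775 and 0.179).

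The 6 genes with a pattern most like PCDH7 were found by Pearson's r with 11724981_at over the 8 arrays among 15958 genes above background in at least 1 group. They were GNAT2, a transducin subunit (r = 0.993), C2CD3, a centriole protein (0.992), SHROOM4, an actin-binding protein (0.990), the keratin gene KRT13 (0.986), TRAF3IP2, an adaptor of interleukin-17 signalling (0.982), and ALCAM, an adhesion molecule (0.980). The points share the lines and the PC9 groups, so these r values are descriptions. Their PC9 differences were smaller than that of PCDH7, from −0.93 for KRT13 to −0.23 for C2CD3. GNAT2 (−0.43 in PC9) and C2CD3, which had the highest r, were below background in both A549 groups. KRT13 read 5.55 and 5.77 in the PC9 EN2 arrays against 6.47 and 6.71 in the PC9 NC arrays, and ALCAM 11.02 and 11.08 in the PC9 EN2 arrays against 11.35 and 11.52 in the PC9 NC arrays.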

How the data were processed

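The deposited table held log2 values for 49495 probe sets on 8 arrays. The authors summarised them with RMA, per the submitters' processing notes, while its version and whether both lines were normalised in 1 run are not stated there. Names came from the platform's annotation, with symbols updated through Entrez identifiers to GRCh38.p14: 45284 had 1 symbol, 1333 several and 2878 none. No filter was applied.

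Group means over all 8 arrays were estimated with limma 3.58.1 in R 4.3.3 (lmFit, then eBayes with an intensity trend, 4 residual degrees of freedom). P-values were two-sided and adjusted by Benjamini-Hochberg over all probe sets of a comparison, and calls were made below 0.05. With 2 arrays against 2, an exact permutation p is at least 0.333. The number of arrays limits the precision. A gene was represented by its probe set of highest mean. The method was tested on simulated data. Members, lists and tests were chosen with earlier results of these data known. Named genes were the members, the 6 genes most like PCDH7, and of each list up to 4 called in A549 or, with none called, the 2 largest A549 differences. Alternatives changed the prior variance, filter, normalisation, probe set rule, arrays, replicate block and an 18S rRNA covariate.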

Additional observations from a re-analysis of the deposited data

Results flagged for a closer look

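In 3 of the 29 member probe sets the EN2 and NC arrays stood in opposite orders in the lines, without overlap. Each such order within 1 line took 15.7% to 24.1% of all probe sets. The share with opposite orders was not counted over all probe sets, so the 3 are no result about the members. Their A549 differences had SEs of 0.075 to 0.099, and the difference between the lines was not tested. PCDH10 probe set 11738065_a_at differed between EN2 and NC by 0.12 in A549 and by −0.11 in PC9. PCDH10 probe set 11731431_at differed by −0.063 in A549 and 0.076 in PC9, and PCDH20 probe set 11754876_a_at by −0.081 in A549 and 0.070 in PC9. The last pair of probe sets was below background in both lines.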

How the results depend on the processing

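The PC9 difference of the brightest PCDH7 probe set lay between −2.50 and −2.01 in 19 alternatives. Most of these, such as another prior variance or leaving out an A549 array, cannot change a difference of PC9 means. The count of 19 is therefore no support. Only the mean of its probe sets (−2.50) moved the difference by more than the spread between replicates. The count of members called in A549 was 3 of 29, against 1.97% of all probe sets. It was 1 of 29 on the A549 arrays alone, against 0.444%, and 0 with the 18S rRNA covariate, against 0.0485%. Leaving out some single arrays, or the outer 18S rRNA arrays, took calls of PCDH9 away. By the brightest probe set 1 of 8 genes was called, against 2.72% of all genes. The mean of probe sets also gave 1 of 8, against 2.35%, and fewer features were tested in both. Those 3 calls were all of PCDH9, whose differences were negative in every alternative run. Without the outer arrays they were −0.42, −0.61 and −0.98 for 11745210_s_at, 11759895_at and 11741951_a_at, none called. The count called between lines was 23 of 29, against 74.2% of all probe sets, and 14 of 14 among brighter probe sets, against 78.1%. That filter took the mean over the 8 arrays, so a probe set could pass through 1 line alone, as 11724983_at of PCDH7 did. The 14 of 14 is therefore no result about the members. The count was 7 of 8 by the brightest probe set (75.8% of all genes) and 6 of 8 by the mean per gene (77.5%). With quantile normalisation it was 16 of 29 (68.4% of all probe sets), and likewise 16 with median centring (70%). It was 17 with the 18S rRNA covariate (66.6%), and it also fell when some arrays were left out. The PCDH10 difference between lines on 11738065_a_at turned to −0.0015 after quantile normalisation. With the replicate block within line, 3 of 29 were called in A549 and 23 of 29 between lines, against 5.91% and 75.5% of all probe sets. Same-numbered arrays deviated together at r = 0.34 in A549 and 0.07 in PC9, and with 2 numbers this does not show pairing. A group left with 1 array takes its spread from the others. Below background no difference can be read.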
